A study of Homo sapiens with 3 samples.

Results

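HMGCS1, IDI1, FDPS, FDFT1, SQLE, LSS, DHCR7 and INSIG1 were measured in U87 MG cells, a human glioblastoma line, that carried a wild-type or a mutant type 1 insulin-like growth factor receptor (IGF1R). The first 7 encode enzymes of cholesterol synthesis and INSIG1 encodes a regulator of that pathway. The group is labelled cholesterol synthesis and uptake, but it holds no uptake receptor. These 8 genes, of 25006 named on the array, were picked on measured values: differences after IGF1 and after the inhibitor OSI906 in these same arrays had led to the choice. Those differences are therefore described here with no test.

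U87WT 5 (U87WT) is a clone transfected with GFP-IGF1R, whose receptor is labelled nuclear. U87Mut 5 (U87Mut) is a clone transfected with GFP-IGF1R1025x-1100x-1120x, in which lysines needed for nuclear entry were exchanged for arginines and whose receptor is labelled non-nuclear. Both clones keep the receptor of the parental cells, both were selected with G418, and each line stands for 1 clone. RNA of both clones was hybridised together on 1 two-colour array per condition, with U87WT in Cy5 and U87Mut in Cy3. The 3 conditions were serum-free medium for 24 h, IGF1 at 50 nM for 24 h, and IGF1 at 50 nM with OSI906, an inhibitor of IGF1R and the insulin receptor, for 24 h. Per the paper, cells were pre-incubated with OSI906 before IGF1, so the conditions are not successive stages of 1 culture. The sample title gives OSI906 as 0.5 µM, while the medium field of the same sample gives 500 µM. No condition was repeated and no dyes were swapped. All 3 arrays lay on 1 slide, so position on the slide and condition cannot be told apart.

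Cells build cholesterol from acetyl-CoA through mevalonate, isoprenoid diphosphates, squalene and lanosterol. The genes of this route share a transcription factor, SREBP-2, which INSIG proteins hold in the endoplasmic reticulum when sterols are plentiful, and which moves to the nucleus when sterols run short. Growth factor signalling through AKT and mTORC1 is known to raise SREBP activity in many cells, and glioblastoma cells are known to depend on cholesterol.

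Each of the 8 genes had a probe that stood well above background in all 6 channel values, and none of the spots was flagged or saturated. LSS had a second, dimmer probe, so 9 probes were measured. A level below is the normalized log2 intensity of the brightest probe of a gene, and, markers apart, levels were compared within a gene only. A difference past 0.5 on the log2 scale (1.41-fold) was counted, for these genes and for the 15183 genes that stood well above background in the same way. Repeated spots of 277 probes gave an SD of 0.074 to 0.089 for a difference between arrays and 0.052 to 0.056 for a clone ratio, which is technical spread within an array and not the spread between cultures. Across arrays, the upper quartile of spot intensity was 164 to 194 in Cy5 and 136 to 187 in Cy3. The IGF1R probe had a clone log2 ratio of 0.07 in serum-free medium, 0.23 after IGF1 and 0.09 with OSI906. The 5 glioma or mesenchymal markers VIM, CD44, CHI3L1, NES and TNC passed the same mark in every channel, as did 1 of 3 astrocyte, 1 of 3 oligodendrocyte lineage, 3 of 3 neuron, 2 of 3 leukocyte, 2 of 3 endothelium and 2 of 3 epithelium markers. GFAP, the defining astrocyte marker, was well above background in 0 of 6 channels, at a level of 5.80 to 5.93. The mark is lenient: AQP4, OLIG2, PTPRC, CDH5 and VWF passed it at only 6.03 to 6.35. SNAP25 lay at 8.40 to 10.34 and VIM at 14.89 to 16.09. Passing the mark is therefore not read as expression of a cell type's genes. The 15183 genes passed the same mark, so the shares given for them below include genes as dim as these markers. The lowest level among the 8 genes was 7.76, for HMGCS1 in U87WT with OSI906.

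The promoters of these genes are shown because most of the genes shared a direction after IGF1 in U87Mut and after OSI906 in both clones, and SREBP acts on promoters with partner factors such as NF-Y, which binds CCAAT. RefSeq windows of GRCh38.p14 ran from 250 bases before to 50 after a transcription start. They were used for 6 of the 8 genes, in 10 windows, and are not reported here for FDFT1 and SQLE. The stretch from position -220 to -1, counted from the start, is printed 5′ to 3′ for each gene, from the window with CCAAT whose start lies furthest upstream. Capitals mark CCAAT or, on the other strand, ATTGG.
HMGCS1, chr5:43313413-43313632, minus strand: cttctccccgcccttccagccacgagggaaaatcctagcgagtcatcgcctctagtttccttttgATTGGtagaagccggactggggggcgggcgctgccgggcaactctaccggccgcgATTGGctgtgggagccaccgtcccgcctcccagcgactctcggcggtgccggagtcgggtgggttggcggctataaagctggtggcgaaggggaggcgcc
IDI1, chr10:1049120-1049339, minus strand: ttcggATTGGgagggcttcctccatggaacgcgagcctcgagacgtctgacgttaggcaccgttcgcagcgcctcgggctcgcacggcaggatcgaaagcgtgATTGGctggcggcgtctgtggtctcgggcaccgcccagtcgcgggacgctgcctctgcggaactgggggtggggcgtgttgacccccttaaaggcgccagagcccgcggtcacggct
FDPS, chr1:155308646-155308865, plus strand: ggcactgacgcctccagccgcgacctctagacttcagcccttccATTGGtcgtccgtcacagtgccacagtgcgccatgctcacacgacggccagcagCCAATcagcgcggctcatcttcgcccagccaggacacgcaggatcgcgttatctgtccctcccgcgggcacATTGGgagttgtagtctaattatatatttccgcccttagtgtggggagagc
LSS, chr21:46228775-46228994, minus strand: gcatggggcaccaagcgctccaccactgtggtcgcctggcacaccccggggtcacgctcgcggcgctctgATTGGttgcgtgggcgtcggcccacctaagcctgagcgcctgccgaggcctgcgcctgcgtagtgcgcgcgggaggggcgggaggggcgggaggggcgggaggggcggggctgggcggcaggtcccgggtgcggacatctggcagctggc
DHCR7, chr11:71448394-71448613, minus strand: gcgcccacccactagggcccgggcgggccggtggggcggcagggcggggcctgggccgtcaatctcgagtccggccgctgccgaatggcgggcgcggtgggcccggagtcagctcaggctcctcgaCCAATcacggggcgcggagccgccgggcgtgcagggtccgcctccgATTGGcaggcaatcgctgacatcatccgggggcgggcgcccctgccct
INSIG1, chr7:155297658-155297877, plus strand: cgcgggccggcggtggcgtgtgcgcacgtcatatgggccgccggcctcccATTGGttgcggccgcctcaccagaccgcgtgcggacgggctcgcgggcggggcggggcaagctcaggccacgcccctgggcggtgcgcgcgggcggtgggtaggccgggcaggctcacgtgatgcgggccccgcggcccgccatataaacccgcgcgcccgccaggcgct

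CCAAT was found on either strand in at least 1 window of 6 of these 6 genes and in 7 of their 10 windows. It was found in 34.6% of all 35116 windows of the same length and in 39.7% of all 27305 genes with a window. Among genes with a window used here, 8 of 11 other sterol synthesis genes and 4 of 7 fatty acid synthesis genes also had CCAAT. In the printed stretches it began between positions -215 and -48, with 3 matches in FDPS, 2 each in HMGCS1, IDI1 and DHCR7, and 1 each in LSS and INSIG1. HMGCS1, IDI1 and DHCR7 each also had a window, for another start, without CCAAT. The E-box CACGTG was found in LSS and INSIG1, in 2 of the 10 windows. It was found in 7.26% of all windows and in 8.77% of all genes with a window. GGGCGG was found in 9 of the 10 windows and in 45% of all windows. The sterol regulatory element type TCACNCCAC was found in 0 of the 10 windows, on either strand, and in 1.13% of all windows. These are matches of letters in these windows and not sites of binding.

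In U87Mut, the genes were lower after IGF1 than in serum-free medium, with 8 of 8 below 0 and a median log2 difference of -0.42. In U87WT they lay close to their serum-free levels, with 6 of 8 above 0 and a median of 0.13. With OSI906 added to IGF1, the larger difference was in U87WT, which was lower than after IGF1 alone in 7 of 8 genes, with a median of -0.44. U87Mut was also lower in 7 of 8, with a median of -0.16, but with median scaling in place of loess 5 of 8 were above 0 there, with a median of 0.03, where all genes were shifted by 0.12. INSIG1 was the exception to the OSI906 difference in both clones. Of all 15183 genes, 57.9% were below 0 for IGF1 in U87Mut and 51.9% were above 0 for IGF1 in U87WT. For OSI906 under IGF1, 53.9% of all genes were below 0 in U87WT and 44.8% in U87Mut.

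**Figure D1:**
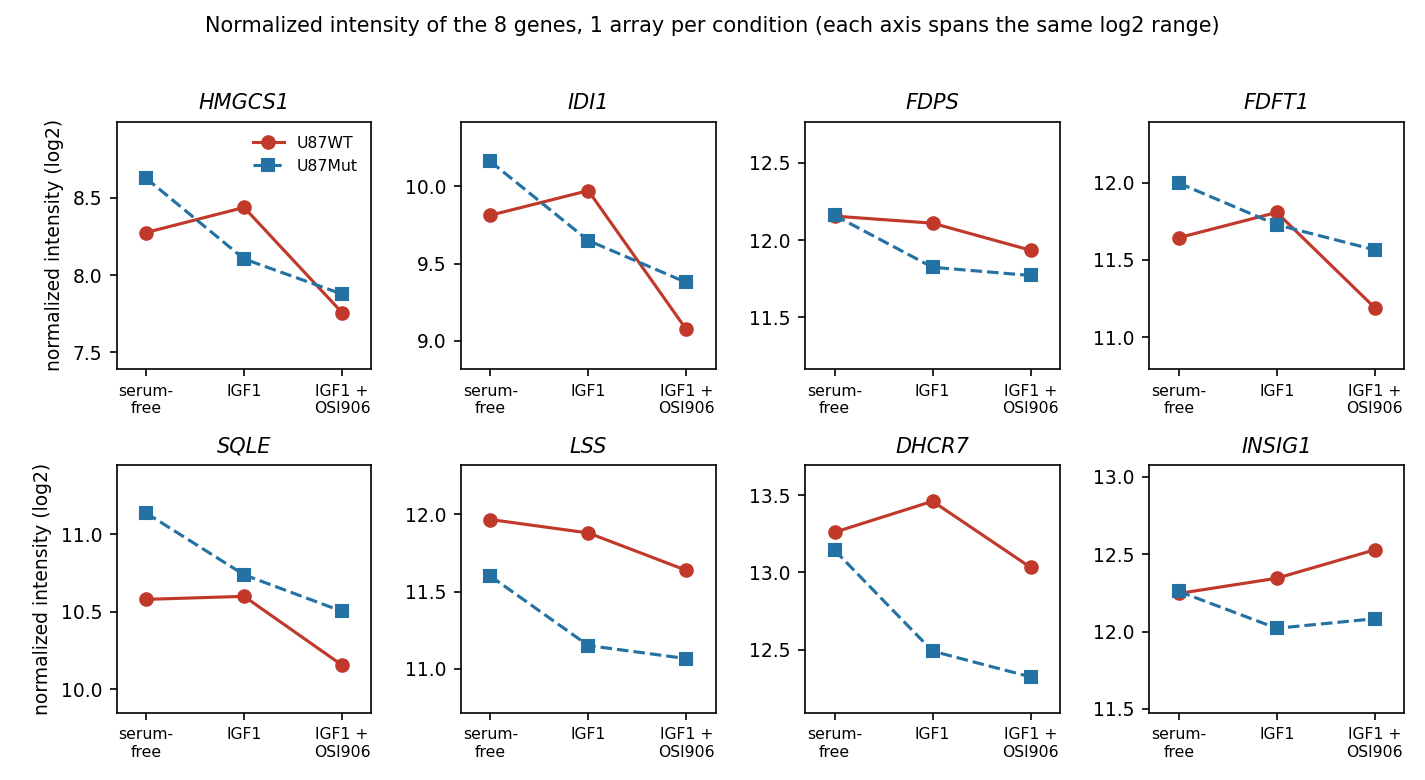
Normalized log2 intensity of the 8 genes (y axis, the same log2 span in each panel) in serum-free medium, IGF1, and IGF1 with OSI906 (x axis). Each point is 1 array, with U87WT as red circles and U87Mut as blue squares. In U87Mut the larger step down lies between serum-free medium and IGF1, and in U87WT, INSIG1 apart, the larger step lies between IGF1 and IGF1 with OSI906.

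HMGCS1 encodes the synthase that makes HMG-CoA, the precursor of mevalonate. In U87WT its level was 8.28 in serum-free medium, 8.44 after IGF1 and 7.76 with OSI906. In U87Mut it was 8.63, 8.11 and 7.88 in the same order. The highest of the 6 values was U87Mut in serum-free medium and the lowest was U87WT with OSI906. Against serum-free medium, IGF1 differed by 0.16 in U87WT and by -0.52 in U87Mut (1.44-fold lower). OSI906 under IGF1 differed by -0.68 in U87WT (1.60-fold lower) and by -0.23 in U87Mut.

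IDI1 encodes the isomerase that interconverts isopentenyl and dimethylallyl diphosphate, the building units of isoprenoids. In U87WT its level was 9.81 in serum-free medium, 9.97 after IGF1 and 9.07 with OSI906. In U87Mut it was 10.16, 9.65 and 9.38. IDI1 thus had the same order of values as HMGCS1 within each clone, with U87WT with OSI906 lowest of the 6. Its OSI906 difference in U87WT, -0.90 (1.86-fold lower), was the largest of the 8 genes, and 0.4% of the 15183 genes lay at or below it. Before any normalization, the IDI1 spot read 940, 1116 and 489 units in Cy5 and 1262, 600 and 583 units in Cy3, in the order serum-free, IGF1 and IGF1 with OSI906.

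FDPS encodes farnesyl diphosphate synthase, which stands where the route divides towards sterols and other isoprenoids. Its levels were 12.16, 12.11 and 11.93 in U87WT and 12.16, 11.82 and 11.77 in U87Mut. The clones were alike in serum-free medium, and U87Mut was the lower clone under both other conditions. No FDPS difference reached 0.5, the most distant being -0.39 for IGF1 with OSI906 against serum-free medium in U87Mut.

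FDFT1 encodes squalene synthase, which commits farnesyl diphosphate to sterols. Its levels were 11.64, 11.81 and 11.19 in U87WT and 12.00, 11.73 and 11.56 in U87Mut. U87WT with OSI906 was the lowest value and U87Mut in serum-free medium the highest. OSI906 under IGF1 differed by -0.62 in U87WT (1.53-fold lower) and by -0.16 in U87Mut.

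SQLE encodes squalene epoxidase, an oxygen-dependent and rate-controlling step. Its levels were 10.58, 10.60 and 10.15 in U87WT and 11.14, 10.74 and 10.50 in U87Mut. U87Mut was the higher clone in all 3 conditions. IGF1 differed from serum-free medium by 0.02 in U87WT and by -0.40 in U87Mut, and OSI906 under IGF1 differed by -0.44 in U87WT and by -0.24 in U87Mut.

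LSS encodes lanosterol synthase, which closes the sterol rings. Its levels were 11.97, 11.88 and 11.64 in U87WT and 11.60, 11.15 and 11.07 in U87Mut. U87WT was the higher clone in all 3 conditions, and every U87WT value lay above every U87Mut value. The IGF1 difference was -0.09 in U87WT and -0.45 in U87Mut. The dimmer LSS probe had the same signs, but its differences were closer in the clones, with IGF1 differences of -0.20 in U87WT and -0.28 in U87Mut and OSI906 differences of -0.07 in both.

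DHCR7 encodes 7-dehydrocholesterol reductase, which makes cholesterol in the last step of the Kandutsch-Russell branch. Its levels were 13.26, 13.46 and 13.03 in U87WT and 13.14, 12.49 and 12.32 in U87Mut. The clones were close in serum-free medium and apart under both IGF1 conditions, with U87WT higher. Its IGF1 difference in U87Mut, -0.65 (1.57-fold lower), was the largest of the 8 genes, against 0.20 in U87WT. With OSI906 the difference from IGF1 alone was -0.43 in U87WT and -0.17 in U87Mut.

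INSIG1 encodes the endoplasmic reticulum protein that retains the SREBP escort SCAP, and is itself an SREBP target. Its levels were 12.25, 12.34 and 12.53 in U87WT and 12.26, 12.02 and 12.08 in U87Mut. In U87WT the order was the reverse of that of the enzymes under OSI906, with the highest value in IGF1 with OSI906. OSI906 under IGF1 differed by 0.18 in U87WT and by 0.06 in U87Mut. After IGF1 alone INSIG1 was on the same side as the enzymes in U87Mut, at -0.24.

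Counted over the 8 genes, IGF1 against serum-free medium in U87WT had 0 genes lower by more than 0.5, where 2.59% of the 15183 genes were. In U87Mut the same comparison had 3 (HMGCS1, IDI1 and DHCR7), where 1.71% of genes were. OSI906 under IGF1 had 3 in U87WT (HMGCS1, IDI1 and FDFT1), where 3.55% of genes were, and 0 in U87Mut, where 0.968% were. With the background model fitted on all spots, HMGCS1 differed by -0.35 with OSI906 in U87WT and the count there was 2. None of the 8 genes was higher by more than 0.5 in any of these comparisons. The median over all 15183 genes was 0.01 for IGF1 in U87WT, -0.03 for IGF1 in U87Mut, -0.02 for OSI906 in U87WT and 0.02 for OSI906 in U87Mut. Because the genes were picked on these comparisons, nothing is read from the counts.

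IGF1 with OSI906 was also compared with serum-free medium, a comparison named the end point below. In U87WT, 7 of 8 genes were below 0 with a median of -0.38, and HMGCS1 (-0.52) and IDI1 (-0.74) were lower by more than 0.5, where 2.23% of genes were. In U87Mut, 8 of 8 genes were below 0 with a median of -0.58, and 5 (HMGCS1, IDI1, SQLE, LSS and DHCR7) were lower by more than 0.5, where 0.751% of genes were. The most distant of these was DHCR7 in U87Mut at -0.82 (1.76-fold lower). The median over all genes was -0.01 in both clones, with 53.2% of genes below 0 in U87WT and 52.6% in U87Mut. IDI1 stood at nearly the same distance in the clones, -0.74 in U87WT and -0.78 in U87Mut. With IGF1 alone against serum-free medium it differed by 0.16 in U87WT and by -0.51 in U87Mut.

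**Figure D2:**
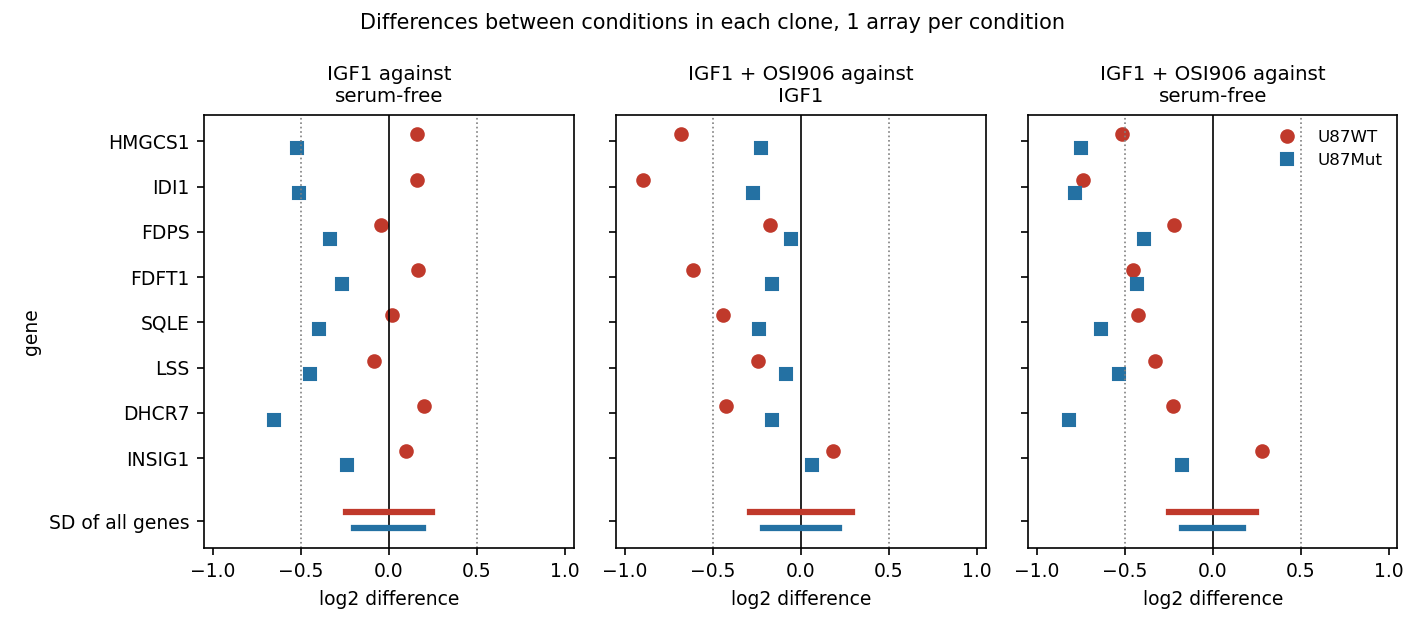
Log2 difference between conditions (x axis) for each of the 8 genes (y axis), in U87WT (red circles) and U87Mut (blue squares). Dotted lines mark 0.5 in either direction and the bars in the lowest line span 1 SD of all 15183 genes on either side of 0. After IGF1 the blue squares all lie left of the red circles, and after OSI906 the red circles lie left of the blue squares for every gene but INSIG1.

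The IGF1 difference of U87WT minus that of U87Mut was above 0 in 8 of 8 genes, with a median of 0.43 and a range from 0.29 in FDPS to 0.85 in DHCR7. Over all genes the same quantity had a median of 0.04 and an SD of 0.256, and 58.0% of genes lay above 0. This quantity is also the clone ratio after IGF1 minus the clone ratio in serum-free medium. The scaling between arrays used here therefore leaves it as it is, but quantile scaling of the 6 channels gave a median of 0.36. The median was 0.26 with the background model fitted on all spots and 0.23 in the deposited log2 ratios, where the lowest gene was at 0.08. With median scaling in place of loess it was 1.16, where all genes were shifted by 0.47. The quantity was not tested, as each condition had 1 array. The corresponding OSI906 quantity was below 0 in 7 of 8 genes, with a median of -0.23, and both share the IGF1 array. Over all genes that quantity had a median of -0.04, with 42.6% of genes above 0. For IGF1 with OSI906 against serum-free medium, the clones differed by a median of 0.21, with 7 of 8 genes above 0, where 49.3% of all genes were.

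The Cy3 channel, which holds U87Mut, had an upper quartile of 187 in serum-free medium, 136 after IGF1 and 157 with OSI906, so it was dimmer on the IGF1 array and brighter again with OSI906. On the IGF1 array 572 spots were flagged as not uniform. The part of either in the result was not tested. With the background model fitted on all spots, the flagged ones included, IGF1 in U87WT gave 5 of 8 genes below 0 and a median of -0.07, while in U87Mut 8 of 8 stayed below 0 with a median of -0.30. Without normalization between arrays, IGF1 in U87WT gave 8 of 8 below 0, where all genes were shifted by -0.16, and relative to that shift 5 of 8 were above 0.

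The clone ratio, log2 of U87WT over U87Mut on 1 array, sets the clones side by side under the same condition. In serum-free medium 6 of 8 genes were below 0 with a median of -0.18, where 52.2% of all genes were below 0. SQLE was lower in U87WT by more than 0.5 (-0.56, 1.47-fold), where 6.13% of genes were, and 0 of the 8 genes were higher by that much, where 6.28% were. After IGF1, where 54.1% of all genes were above 0, 7 of 8 genes were above 0 with a median of 0.32. With the background model fitted on all spots this was 4 of 8 with a median of 0.08, as it was in the deposited log2 ratios, with a median of 0.08. DHCR7 (0.97, 1.96-fold) and LSS (0.73, 1.66-fold) were higher in U87WT by more than 0.5, where 7.23% of genes were, and 0 were lower, where 4.66% were. With OSI906, 4 of 8 genes were above 0 with a median of 0.02, where 47.8% of all genes were above 0. DHCR7 (0.71) and LSS (0.57) were again higher by more than 0.5, where 5.71% of genes were, and 0 were lower, where 5.66% were. HMGCS1, IDI1 and FDFT1 were below 0 in serum-free medium, above 0 after IGF1 and below 0 with OSI906. HMGCS1, for one, had ratios of -0.35, 0.33 and -0.12. With the background model fitted on all spots the ratios after IGF1 were -0.0043 in HMGCS1, -0.11 in IDI1 and -0.06 in FDFT1, so that none of the 3 crossed 0.

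**Figure D3:**
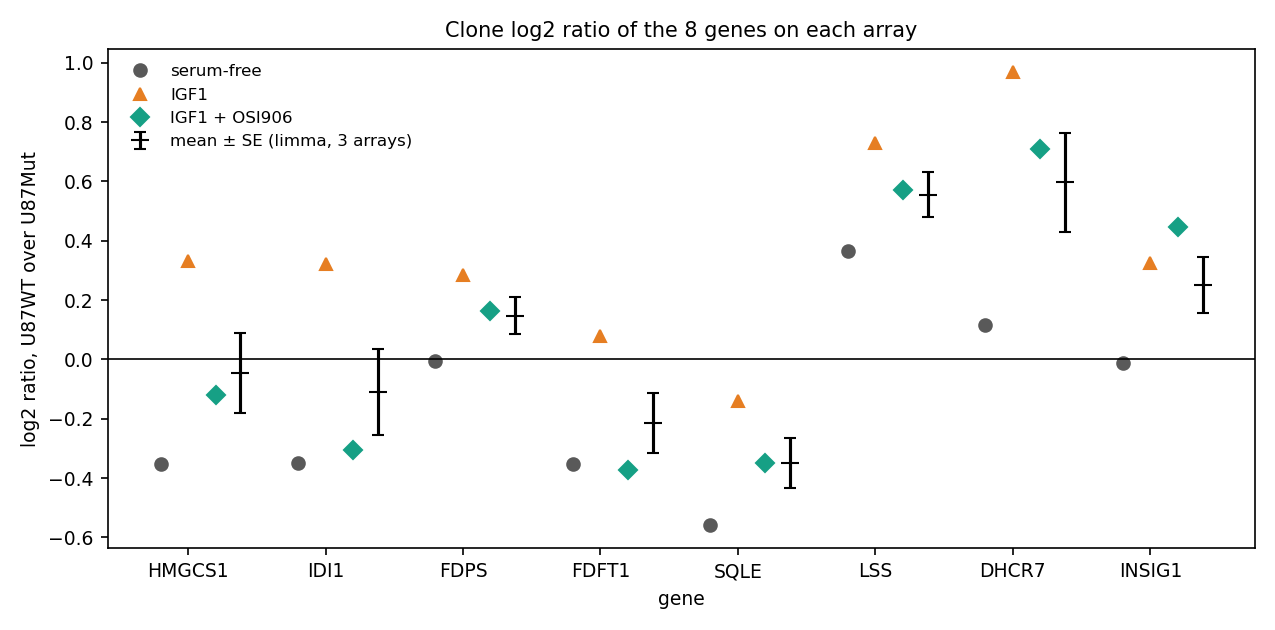
Clone log2 ratio, U87WT over U87Mut (y axis), of the 8 genes (x axis) on the serum-free (grey circles), IGF1 (orange triangles) and IGF1 with OSI906 (green diamonds) arrays. Black bars give the mean over the 3 arrays ± SE from limma. LSS and DHCR7 lie above 0 on all 3 arrays and SQLE below 0 on all 3.

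The mean clone ratio over the 3 arrays was the only quantity with a test, limma's moderated test with Benjamini-Hochberg adjustment over all 58201 probes. The 3 arrays are different conditions, so the responses above add to its error. Each line stands for 1 clone, so its p-values hold no spread between clones or between repeated cultures. The test called 8.77% of probes, and nothing is read from the number of calls among the 8 genes. Of the 8 genes it called 1, LSS, with a mean log2 ratio of 0.55 (SE 0.076, n = 3 arrays, adjusted p = 0.0194, limma), higher in U87WT on 3 of 3 arrays. The dimmer LSS probe had a mean of 0.66 (SE 0.037, adjusted p = 0.00347, limma), also higher on 3 of 3. DHCR7 had a mean as large, 0.60, but an SE of 0.167 and an adjusted p of 0.120 in limma, since its ratio ran from 0.12 to 0.97. SQLE had a mean of -0.35 (SE 0.085), lower in U87WT on 3 of 3 arrays, with an adjusted p of 0.0875 in limma. The means of INSIG1 (0.25), FDPS (0.15), FDFT1 (-0.22), IDI1 (-0.11) and HMGCS1 (-0.05) did not pass, with adjusted p-values from 0.226 to 0.894 in limma. Without the IGF1 with OSI906 array the test called 0 of the 8 genes (675 of all probes), without the IGF1 array 4 (6284 probes) and without the serum-free array 2 (1902 probes). The LSS call was lost with the background fitted on all spots, with an offset of 0, with the scanner software's processed signals and with median scaling, where the smallest adjusted p among the 8 genes in limma was 0.0528, 0.133, 0.195 and 0.525. With no dye swap, a dye bias of a probe and a clone difference cannot be told apart.

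Of 14 other genes of sterol synthesis, all well above background, 13 were below 0 for IGF1 in U87Mut, with a median of -0.35. ACAT2, which makes acetoacetyl-CoA, was lower by more than 0.5 (-1.18). The same 14 genes had a median of 0.05 for IGF1 in U87WT, where ACAT2 again was the 1 gene lower by more than 0.5 (-0.83). OSI906 under IGF1 gave 12 of 14 below 0 in U87WT, with a median of -0.16. Lower by more than 0.5 were MSMO1 (-1.10), which removes methyl groups at carbon C-4 of the sterol, CYP51A1 (-0.57), the lanosterol demethylase, MVK (-0.54), mevalonate kinase, and HSD17B7 (-0.51), a sterol ketone reductase. In U87Mut OSI906 gave 9 of 14 below 0, with a median of -0.05. Against serum-free medium, IGF1 with OSI906 in U87Mut had 13 of 14 below 0 and 7 lower by more than 0.5, with a median of -0.49, and in U87WT 10 of 14 below 0 and 2 lower by more than 0.5, with a median of -0.13. After IGF1, MSMO1 stood 0.47 above its serum-free level in U87WT and differed by -0.49 in U87Mut, the widest gap between the clones among the 14.

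**Figure D4:**
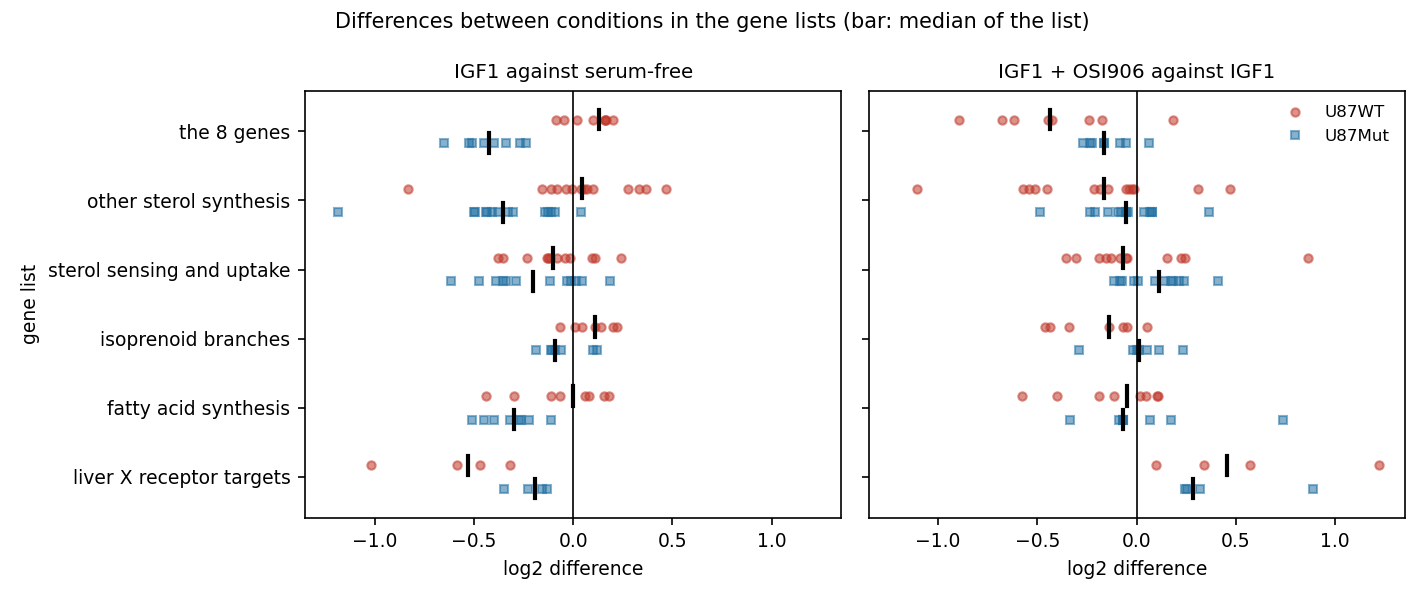
Log2 difference (x axis) for IGF1 against serum-free medium (left) and for IGF1 with OSI906 against IGF1 (right) in the 8 genes and 5 other lists (y axis), with U87WT as red circles, U87Mut as blue squares, 1 point per gene and black bars at the list's median. The IGF1 medians of U87Mut lie left of those of U87WT in every list but the liver X receptor targets.

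The 7 enzymes of isoprenoid branches that leave before squalene had 0 genes past 0.5 in any of the 6 comparisons between conditions, with IGF1 medians of 0.11 in U87WT and -0.09 in U87Mut. The 12 genes of sterol sensing and uptake had 9 below 0 for IGF1 in U87Mut, with a median of -0.20 and 1 lower by more than 0.5, the sterol carrier STARD4 (-0.62). For IGF1 in U87WT they also had 9 below 0, with a median of -0.10 and none lower by more than 0.5. SREBF2, which encodes SREBP-2, differed by -0.23 in U87WT and -0.35 in U87Mut after IGF1. MBTPS2, the protease that releases SREBP within the membrane, differed by 0.86 with OSI906 under IGF1 in U87WT and by 0.24 in U87Mut.

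The 8 fatty acid synthesis genes, which SREBP-1 drives, had 8 of 8 below 0 for IGF1 in U87Mut, with a median of -0.30, and FASN, the fatty acid synthase, was lower by more than 0.5 (-0.51). In U87WT 4 of 8 were below 0, with a median of -0.0017. OSI906 under IGF1 in U87WT gave a median of -0.05, with ACLY, which supplies acetyl-CoA to both routes, lower by more than 0.5 (-0.58). SCD, the stearoyl-CoA desaturase, went the other way in U87Mut, with an OSI906 difference of 0.74 against 0.02 in U87WT. Of 5 liver X receptor targets, which answer to sterol excess, 4 were well above background. They were below 0 for IGF1 in both clones, 4 of 4, with medians of -0.53 in U87WT and -0.19 in U87Mut. With OSI906 they lay above 0, 4 of 4, with medians of 0.45 in U87WT and 0.28 in U87Mut, and so on the other side from most of the synthesis enzymes. APOE, a carrier of cholesterol, differed by -1.02 after IGF1 and by 1.22 with OSI906 in U87WT, and ABCA1, a cholesterol exporter, differed by 0.57 with OSI906 in U87WT and by 0.89 in U87Mut. NR1H3, which encodes a liver X receptor, differed by -0.59 after IGF1 in U87WT.

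The genes most like the 8 were sought among 433 other genes that were well above background and spanned more than 0.5 in each clone, by the root mean square (RMS) difference of their 6 levels from the median of the 8 genes, both centred within the clone. This likeness rests on 6 values from 3 arrays. Of the 8 genes themselves, HMGCS1 and IDI1 met the span rule and would have ranked 9 and 25, and the others did not meet it. The closest were CERS6-AS1 (RMS 0.044), CYP51A1 (0.046), CKAP2L (0.066), RUSC1-AS1 (0.078), AOX1 (0.078), ANXA4 (0.079), HSD17B7 (0.084) and SLC29A1 (0.086), all in log2 units. CYP51A1 and HSD17B7 are sterol synthesis enzymes. RUSC1-AS1 overlaps FDPS on chromosome 1 in the RefSeq table. Within the 8 genes, SQLE lay nearest to their median (RMS 0.033) and INSIG1 furthest (0.242), with IDI1 (0.153) next to it.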

How the data were processed

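The 3 arrays were Agilent SurePrint G3 Human Gene Expression v3, 1 per condition. The scanner files hold intensity values as deposited, per the file headers from Feature Extraction 12.0.3.1: median signal and local background of each spot and channel, not normalized. The authors also deposited log2 ratios per probe, which equalled normexp with offset 20 on all spots followed by loess, within 0.0001 for 58341 of 58341 probes. They served as an alternative.

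In R 4.3.3 with limma 3.58.1, background was corrected by normexp with offset 50, fitted without spots flagged as not uniform (5 to 572 per array), followed by loess within arrays and Aquantile between arrays. Outlier flags and 2075 control spots were left out. Fitted on all spots, the background SD in Cy5 of the IGF1 array was 701 instead of 1.32. Probes were named through RefSeq accessions (34892 of 58201), and the brightest probe stood for a gene. Differences between conditions had no test. Mean clone ratios were tested with lmFit and eBayes. The code was tested on simulated data. The number of arrays limits the precision.

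The genes and lists were chosen with earlier results of these data known. Named are the 8 genes, pathway list genes past 0.5 in a comparison (not all of them), and the 8 most alike genes by the stated rule. SREBF2 and IGF1R were named for their role. A further marker fixed for the glioma or mesenchymal list is not reported here.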

Additional observations from a re-analysis of the deposited data

Results flagged for a closer look

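For 3 of the 8 genes the clones differed in opposite directions after IGF1, against serum-free medium, by more than 0.5 in total. The genes were picked on these same differences, so nothing is read from this count. Over all 15183 genes the IGF1 difference of U87WT minus that of U87Mut had a median of 0.04 and an SD of 0.256. The share of all genes that meets this rule was not counted. HMGCS1 differed by 0.16 in U87WT and -0.52 in U87Mut, a gap of 0.68. IDI1 differed by 0.16 and -0.51, a gap of 0.67. DHCR7 differed by 0.20 and -0.65, a gap of 0.85. The opposite directions depended on the processing. With the background fitted on all spots HMGCS1 (-0.07) and IDI1 (-0.08) were below 0 in U87WT too, and without normalization between arrays all 3 were (-0.04, -0.07 and -0.02), where all genes were shifted by -0.16. None of these gaps was tested, since each clone had 1 array per condition.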

How the results depend on the processing

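Limits: 1 array per condition leaves no error for any difference between conditions. All 8 genes lie well above background, but HMGCS1, with spot readings of 179 to 405.5 units before normalization, moved with the offset. Its OSI906 difference in U87WT was -0.68 as reported and -0.81 with an offset of 0. No paired analysis was possible because each condition holds 1 array, apart from the clone ratio, which pairs the clones on each array. No value of the 8 genes that was past 0.5 turned its sign under any of the alternatives, but the counts moved. With the background fitted on all spots, 1 gene was lower by more than 0.5 for IGF1 with OSI906 against serum-free medium in U87WT, 1 for IGF1 in U87Mut, and 0 were called by mean clone ratio, where 720 of 58201 probes were (5107 as reported). OSI906 in U87WT had 2. Normexp with offset 20 called 3 (6398 probes), offset 0 called 0 (695) and no background correction called 2 (5731). The scanner software's processed signals gave 0 genes past 0.5 by clone ratio in serum-free medium and called 0, as of all probes (10128 at an unadjusted p under 0.05). Quantile scaling of the 6 channels left 1 for IGF1 in U87Mut. A limit of 1 in place of 0.5 left 0 for OSI906 in U87WT, IGF1 in U87Mut, both end points against serum-free medium and all 3 clone ratios. Averaging the probes of each gene called 3 (3986 genes), and bright probes only called 3 (5527 probes). Leaving out 1 array at a time called from 0 to 4.

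Median scaling in place of loess shifted all genes by 0.23 for IGF1 in U87WT and -0.28 in U87Mut. It gave 3 genes higher for IGF1 in U87WT, 8 lower for IGF1 in U87Mut, 5 lower for OSI906 and 1 lower for the end point in U87WT, 4 lower by clone ratio in serum-free medium, 7 higher after IGF1 and 0 called by the mean, as of all probes (5182 at an unadjusted p under 0.05). Relative to the shift, 0 were higher for IGF1 in U87WT and 4 lower in U87Mut. No normalization between arrays gave 5 lower for the end point in U87WT and 7 for IGF1 in U87Mut, and 3 and 3 relative to shifts of -0.20 and -0.21. The share of higher genes among all past 0.5 ran from 5.82% to 96% for IGF1 in U87WT (43.1% as reported) and from 0.414% to 56.3% in U87Mut (32.3% as reported). That share ran from 19.6% to 73.5% for OSI906 in U87WT (51%), 42.9% to 93% in U87Mut (68.2%), 8.82% to 87% for the end point in U87WT (51.8%) and 4.27% to 51.2% in U87Mut (47.5%). For the clone ratio it ran from 15.1% to 56.5% in serum-free medium (50.6%), 27.4% to 95.5% after IGF1 (60.8%) and 46.8% to 68.3% with OSI906 (50.2%). The IGF1 difference of U87WT minus that of U87Mut stayed above 0 in 8 of 8 genes under all alternatives, with medians from 0.23 to 1.16. The 1.16 came from median scaling, where all genes were shifted by 0.47, and relative to that shift the median was 0.70. All alternatives use the same 3 arrays on which the genes were picked. The causes were not tested.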
